A study of Mus musculus with 24 samples.

Results

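Oligodendrocyte and myelin genes were followed across 4 groups of R6/1 and WT mice by RNA-seq of the striatum. R6/1 is a transgenic model of Huntington's disease that expresses exon 1 of human HTT with an expanded CAG repeat. The set holds 9 of the 24340 genes shared by the 6 deposited comparison tables. The genes were found by an exact match of their names, and all 9 were present in every table. They are Mbp, Mobp, Mag, Mog and Cnp for myelin proteins, Ugt8a for a myelin lipid enzyme, Olig1 and Olig2 for transcription factors of the lineage, and Pdgfra for a growth factor receptor of the precursor cells. RNA-seq covered 24 mice, with 5 WT-vehicle, 6 R6/1-vehicle, 6 WT-RGFP109 and 7 R6/1-RGFP109 libraries. WT mice were littermates without the transgene, and R6/1 mice were hemizygous on a C57BL/6J background. The drug RGFP109, which inhibits HDAC1 and HDAC3, was injected at 30 mg/kg on 5 occasions per week over 3 weeks. Vehicle mice received the solvent alone. Mice were 11 to 14 weeks old at the first injection and 14 to 17 weeks old at sacrifice, 18 h after the last injection.

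Oligodendrocytes wrap axons of the central nervous system in myelin, a stack of lipid-rich membrane that speeds conduction. They arise from precursor cells that carry the PDGF receptor alpha and still divide in the adult brain. Olig2 and Olig1, together with Sox10 and Myrf, drive the passage from precursor to myelinating cell, in which the genes for myelin proteins and for galactolipid synthesis are strongly expressed. In the striatum, much of the myelin lies in the fiber bundles of the internal capsule that cross the tissue.

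The deposited tables give 1 FPKM value (sequenced fragments scaled to transcript length and to library size) per gene and group, computed by the authors over all libraries of the group. There is thus no spread between mice behind the values below, no test could be run on them, and every difference describes group values without a replicate check. The depth of the libraries is unknown. Each group occurs in 3 tables, and its values differ between tables by a factor that is nearly the same for all genes, with a median between 0.9623 and 0.9987. Levels are therefore given as the range over the 3 tables, which shows the scaling and not the variation between mice. Log2 ratios were taken within a table after adding 0.05 FPKM, and ratios beyond 0.5 in either direction were counted. RNA of oligodendrocytes was plainly present, since Cldn11, the tight junction claudin of myelin, stood at 140.0 FPKM and the lineage factor Sox10 at 34.4 FPKM in WT-vehicle mice. The 4 markers of Schwann cells, which myelinate peripheral nerve, summed to between 1.39 and 1.73 FPKM over all groups and tables. In whole tissue, fewer oligodendrocytes and less RNA per oligodendrocyte cannot be told apart.

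Promoter windows from RefSeq (250 bases before to 50 bases after the start of transcription, on GRCm38.p6, the assembly also called mm10) were matched to 7 of the 9 genes by symbol, the others being Mbp and Olig1. Shown are Mobp and Ugt8a, which were lower in R6/1 than in WT mice with either treatment, and Mag and Mog, which were lower in R6/1 mice with vehicle but near equal with RGFP109. Each window is written 5′ to 3′ on the strand of its gene. Capitals mark CTTTGT on either strand, the core letters bound by Sox factors such as Sox10, and CTGGCAC or CTGGTAC on either strand, letters bound by Myrf.
Mobp, chr9:120149492-120149791, plus strand: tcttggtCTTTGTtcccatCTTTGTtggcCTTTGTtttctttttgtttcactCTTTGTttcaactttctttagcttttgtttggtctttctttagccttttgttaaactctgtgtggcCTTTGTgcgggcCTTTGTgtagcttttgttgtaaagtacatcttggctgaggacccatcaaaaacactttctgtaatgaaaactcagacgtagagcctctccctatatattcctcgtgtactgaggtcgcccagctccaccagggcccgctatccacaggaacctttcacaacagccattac
Ugt8a, chr3:125938603-125938902, minus strand: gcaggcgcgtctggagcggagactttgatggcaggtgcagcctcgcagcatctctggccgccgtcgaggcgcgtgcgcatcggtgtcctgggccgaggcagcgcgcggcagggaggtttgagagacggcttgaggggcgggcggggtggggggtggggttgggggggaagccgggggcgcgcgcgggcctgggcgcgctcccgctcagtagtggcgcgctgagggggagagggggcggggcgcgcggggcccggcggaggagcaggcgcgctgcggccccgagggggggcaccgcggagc
Mag, chr7:30914814-30915113, minus strand: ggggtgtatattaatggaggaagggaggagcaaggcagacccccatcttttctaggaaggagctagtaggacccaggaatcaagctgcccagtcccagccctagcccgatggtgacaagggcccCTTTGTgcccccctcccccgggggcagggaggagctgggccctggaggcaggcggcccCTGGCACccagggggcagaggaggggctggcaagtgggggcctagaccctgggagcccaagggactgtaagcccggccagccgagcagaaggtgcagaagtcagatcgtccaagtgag
Mog, chr17:37023349-37023648, minus strand: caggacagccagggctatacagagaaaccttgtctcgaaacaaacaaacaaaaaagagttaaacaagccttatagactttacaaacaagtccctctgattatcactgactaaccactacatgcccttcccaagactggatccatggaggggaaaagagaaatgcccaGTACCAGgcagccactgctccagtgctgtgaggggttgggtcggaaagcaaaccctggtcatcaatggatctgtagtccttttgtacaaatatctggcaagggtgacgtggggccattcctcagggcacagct

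The Mobp window held CTTTGT 6 times, all upstream of the start of transcription. Of the 32851 windows of this length, 18.7% held it at least 1 time, and 1, that of Mobp, held it at least 6 times. The windows of Mag and Cnp held it 1 time each, and those of Mog, Ugt8a, Olig2 and Pdgfra did not hold it. CTGGCAC or CTGGTAC was found 1 time each in the windows of Mag, Mog and Cnp, against 7.1% of all windows, and not in the other 4. The E-box CANNTG, read by basic helix-loop-helix factors such as Olig1 and Olig2, occurred 2 times each for Mag and Pdgfra and 1 time each for Cnp and Ugt8a, and 72.3% of all windows held it. None of these matches overlapped another in the windows shown. The share of G and C was 78.3% for Ugt8a, 65% for Mag, 48.3% for Mog and 43.3% for Mobp, with a median of 52.7% over all windows. The start used by RefSeq lay 31 bases from the end of the deposited gene interval for Mag, which had 3 windows, and 102 bases from it for Ugt8a. The motifs were chosen after windows and ratios had been seen, and binding was not measured.

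All 9 genes had their highest value in WT-vehicle mice, and the share of all genes that did so was not counted. Mbp (chr18:82475123-82585637) encodes myelin basic protein, which joins the cytoplasmic faces of the membrane in compact myelin. Its level was 2925 to 3036 FPKM in WT-vehicle, 1611 to 1667 in R6/1-vehicle, 2234 to 2322 in WT-RGFP109 and 1844 to 1901 in R6/1-RGFP109. Mobp (chr9:120149742-120176091), another small protein of compact myelin, stood at 254.3 to 263.9, 135.8 to 140.5, 190.6 to 198.1 and 154.3 to 159.0 FPKM in the same order. For both genes the WT-vehicle value was highest, WT-RGFP109 came next, and R6/1-vehicle was lowest.

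Mag (chr7:30899183-30914832) encodes an adhesion protein of the innermost myelin layer, next to the axon. Its level was 156.5 to 162.5 FPKM in WT-vehicle, 113.9 to 117.9 in R6/1-vehicle, 116.8 to 121.4 in WT-RGFP109 and 118.6 to 122.3 in R6/1-RGFP109. Mog (chr17:37010740-37023398), on the outer surface of the sheath, stood at 81.63 to 84.72, 63.99 to 66.22, 63.83 to 66.32 and 67.51 to 69.6 FPKM. Cnp (chr11:100574939-100581739), an enzyme of non-compact myelin, stood at 299.9 to 311.2, 230.5 to 238.6, 236.1 to 245.4 and 242.2 to 249.7 FPKM. These 3 genes thus split the groups differently from Mbp and Mobp: WT-vehicle stood above the other groups, which lay close together.

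Ugt8a (chr3:125865343-125938550) makes galactosylceramide, the leading glycolipid of myelin. It stood at 21.08 to 21.87 FPKM in WT-vehicle, 12.91 to 13.36 in R6/1-vehicle, 16.74 to 17.39 in WT-RGFP109 and 13.61 to 14.03 in R6/1-RGFP109. Its order of groups was that of Mbp and Mobp.

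Olig1 (chr16:91269769-91271939) and Olig2 (chr16:91225550-91228677) lie next to each other in the genome. Olig1 was at 85.74 to 89.0 FPKM in WT-vehicle, 72.94 to 75.52 in R6/1-vehicle, 71.1 to 73.88 in WT-RGFP109 and 76.8 to 79.24 in R6/1-RGFP109. Olig2 was at 17.43 to 18.09, 14.77 to 15.29, 14.86 to 15.43 and 15.72 to 16.21 FPKM in that order. Both transcription factors shared the pattern of Mag, Mog and Cnp. Pdgfra (chr5:75152291-75198204) varied least, with 12.17 to 12.63 FPKM in WT-vehicle, 10.95 to 11.35 in R6/1-vehicle, 11.27 to 11.71 in WT-RGFP109 and 10.77 to 11.11 in R6/1-RGFP109. Within a table, the log2 ratio of Pdgfra was -0.091 for R6/1-vehicle against WT-RGFP109 and -0.03 for R6/1-RGFP109 against R6/1-vehicle.

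**Figure D1:**
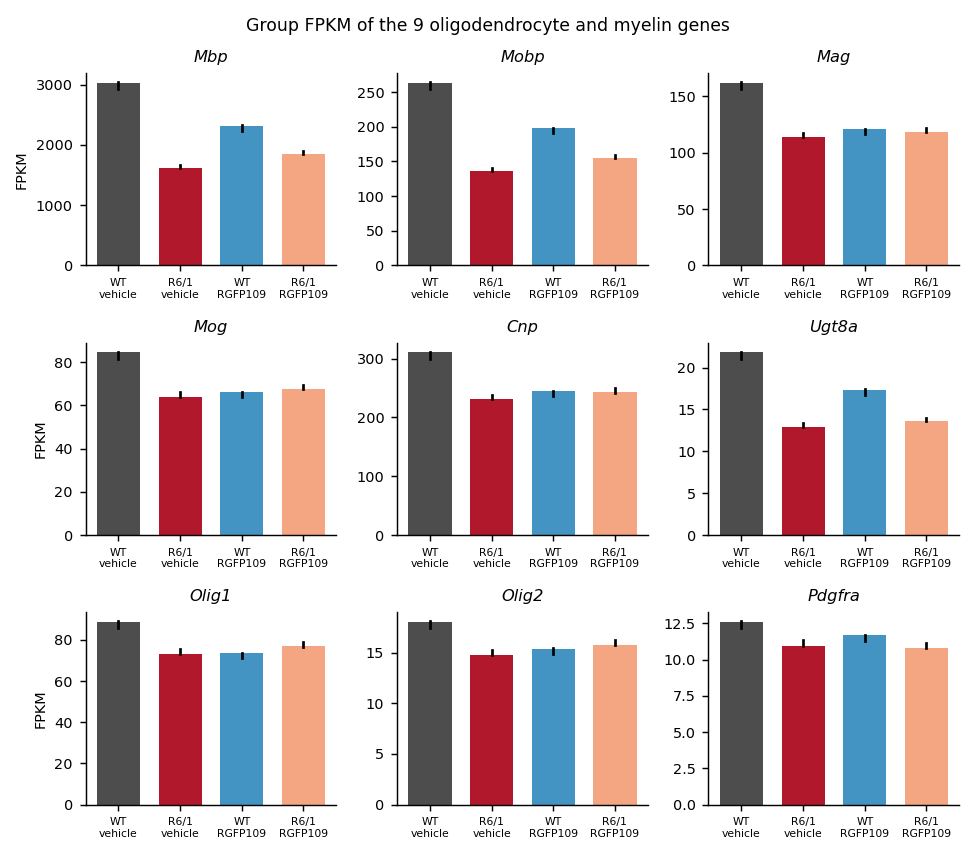
Level of each of the 9 genes in FPKM (vertical axes, each starting at 0) in the 4 groups, as bars at the middle of 3 deposited tables with ticks for the range over the tables. The ticks do not show variation between mice. The WT-vehicle bar is the highest for every gene. The R6/1 bars of Mbp, Mobp, Ugt8a, Mag, Cnp and Pdgfra lie below both WT bars, narrowly for Mag and Cnp with RGFP109.

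The effect of the transgene without drug was read from R6/1-vehicle against WT-vehicle. All 9 genes were lower in R6/1-vehicle, and 4 of 9 passed a log2 ratio of -0.5, where 13.4% of the 16972 genes with at least 0.1 FPKM did so. Among the 7911 genes with at least 10 FPKM, the range in which all 9 lie, the share was 9.73%. With a limit of 0.25, 8 of 9 genes were lower, where 26.3% of genes and 22.1% of those with at least 10 FPKM were. None of the 9 passed a limit of 1, where 4.45% of genes did. The ratio was -0.955 for Mobp, -0.91 for Mbp, -0.755 for Ugt8a and -0.51 for Mag, so that the R6/1-vehicle level of Mobp was 0.516 of the WT-vehicle level and that of Mag was 0.703. Centred on the median of all genes, Mag was at -0.49 and the count was 3 of 9. Mag lay just inside the limit, and Cnp (-0.43) and Mog (-0.40) just outside it. Olig2 (-0.29), Olig1 (-0.28) and Pdgfra (-0.20) differed least. The median over the 9 genes was -0.43, and the median over all genes was -0.019. A lower ratio than that of Mobp was held by 4.97% of genes, and a lower ratio than that of Pdgfra by 30.0%.

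The same contrast with drug, R6/1-RGFP109 against WT-RGFP109, used none of the libraries of the vehicle contrast. None of the 9 genes passed the limit, where 11.7% of 16954 genes were lower and 5.39% were higher past it. Of the genes with at least 10 FPKM, 8.29% were lower. With a limit of 0.25, 3 of 9 genes were lower, where 23.3% of genes and 18.8% of those with at least 10 FPKM were. Mobp, at -0.36, Ugt8a, at -0.35, and Mbp, at -0.33, lay farther below 0 than the other members. Mag (-0.031), Cnp (-0.017), Mog (0.027), Olig2 (0.028) and Olig1 (0.058) were near equal between the genotypes, and Pdgfra stood at -0.12. The median of the 9 genes was -0.031. The genotype ratio was thus higher with RGFP109 than with vehicle for all 9 genes, by 0.60 for Mobp, 0.58 for Mbp, 0.48 for Mag, 0.43 for Mog, 0.41 for Cnp, 0.40 for Ugt8a, 0.34 for Olig1, 0.32 for Olig2 and 0.083 for Pdgfra on the log2 scale. Over the genes with at least 10 FPKM, the median of this difference was 0.012. The difference could not be tested without values per library.

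Both drug contrasts were read to see which group accounts for this difference in arithmetic terms. In WT mice, all 9 genes were lower with RGFP109 than with vehicle, and none passed the limit, where 4.92% of 16957 genes and 1.77% of those with at least 10 FPKM were lower past it. With a limit of 0.25, 7 of 9 genes were lower, where 11.3% of genes and 4.02% of those with at least 10 FPKM were. The ratios were -0.42 for Mag, -0.42 for Mobp, -0.39 for Mbp, -0.355 for Mog, -0.345 for Cnp, -0.33 for Ugt8a, -0.27 for Olig1, -0.23 for Olig2 and -0.11 for Pdgfra. The myelin genes lay in a narrow band here, unlike in the genotype contrast. A lower ratio than that of Mag was held by 6.03% of all genes. In R6/1 mice, 8 of 9 genes were higher with RGFP109, none past the limit, where 2.62% of 16840 genes and 1.59% of those with at least 10 FPKM were higher past it. Mbp was at 0.19 and Mobp at 0.18, Mag, Mog, Cnp, Ugt8a, Olig1 and Olig2 ranged from 0.053 to 0.084, and Pdgfra was at -0.03. For each gene except Pdgfra, the WT contrast was larger in size than the R6/1 contrast and of the opposite sign. The R6/1 contrast shares R6/1-vehicle, and the WT contrast shares WT-vehicle, with the genotype contrast in vehicle mice.

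**Figure D2:**
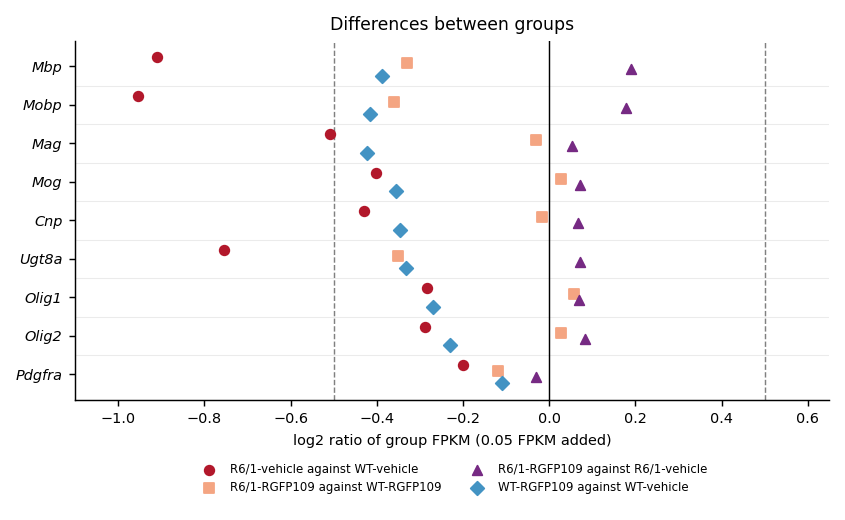
Log2 ratios of the 9 genes (horizontal axis) in both genotype contrasts and both drug contrasts, 1 point per gene and contrast, with lines at the limit of 0.5. In WT mice the drug ratios are all below 0, between -0.42 and -0.11, and in R6/1 mice they lie between -0.03 and 0.19.

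Treated R6/1 mice were also set against untreated WT mice. All 9 genes were lower in R6/1-RGFP109 than in WT-vehicle, and 3 of 9 passed the limit, where 13.8% of 16982 genes and 9.5% of those with at least 10 FPKM did so. With a limit of 0.25 it was 6 of 9, where 26.1% of genes and 21.1% of those with at least 10 FPKM passed. With a limit of 1 it was none, where 4.4% of genes passed. Past the limit of 0.5 were Mobp (-0.775), Mbp (-0.72) and Ugt8a (-0.68), and the median was -0.36. In R6/1-vehicle against WT-RGFP109, 2 of 9 passed, Mobp (-0.54) and Mbp (-0.52), where 11.4% of 16949 genes and 8.29% of those with at least 10 FPKM did so, and none passed a limit of 1, where 3.74% did. Ugt8a was at -0.42 in that contrast and the other 6 genes lay between -0.091 and -0.013.

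The proportions of the transcripts to each other do not depend on the scaling of a table. These pairs were chosen after the values had been seen. The level of Mbp divided by that of Cnp was 9.76 in WT-vehicle and 9.46 in WT-RGFP109, but 6.99 in R6/1-vehicle and 7.61 to 7.62 in R6/1-RGFP109. Mobp divided by Mag was 1.62 and 1.63 in the WT groups and 1.19 and 1.3 in R6/1-vehicle and R6/1-RGFP109. Ugt8a divided by Mog was 0.258 and 0.262 in the WT groups and 0.202 in both R6/1 groups. These proportions separated the genotypes and differed less between the treatments. Mag divided by Cnp, at 0.49 to 0.522, Mog divided by Cnp, at 0.27 to 0.279, and Olig2 divided by Olig1, at 0.202 to 0.209, varied little over the 4 groups. Pdgfra divided by Olig1 was 0.142 in WT-vehicle, 0.15 in R6/1-vehicle, 0.158 to 0.159 in WT-RGFP109 and 0.14 in R6/1-RGFP109.

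Relative to the mean log2 ratio of Mag, Mog and Cnp, a reference chosen after the data were seen, the genotype ratio of Mobp was -0.51 with vehicle and -0.35 with RGFP109. That of Mbp was -0.46 and -0.32, and that of Ugt8a was -0.31 and -0.34. Olig1 was at 0.16 and 0.065 and Olig2 at 0.16 and 0.035. Fa2h, which hydroxylates the fatty acids of myelin lipids (-0.44 and -0.41), and Car2, a carbonic anhydrase (-0.50 and -0.60), sat with Mbp, Mobp and Ugt8a on this scale. Sox10 (-0.044 and -0.003), Myrf (0.044 and 0.031) and Trf, the iron carrier transferrin (0.044 and -0.004), sat with Mag, Mog and Cnp. Of 82 other oligodendrocyte genes with at least 1 FPKM, 32 were below the reference with both treatments, 23 were above it with both and 27 were mixed. Of all 13652 genes with at least 1 FPKM, 11.2% were below it with both treatments and 52.1% were above it with both. Among myelin membrane and junction proteins 8 of 11 were below it with both treatments, among enzymes and secreted proteins of mature cells 9 of 11, among precursor genes 1 of 12, among genes of newly formed oligodendrocytes 1 of 8 and among lineage transcription factors 1 of 7. The lists with Fa2h and other lipid enzymes (3 of 8 below and 3 above with both), axon-glia adhesion genes (3 of 7 and 3 of 7) and cytoskeleton genes (2 of 8 and 2 of 8) were mixed, and among ligands and receptors 4 of 10 were below it and 1 above.

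**Figure D3:**
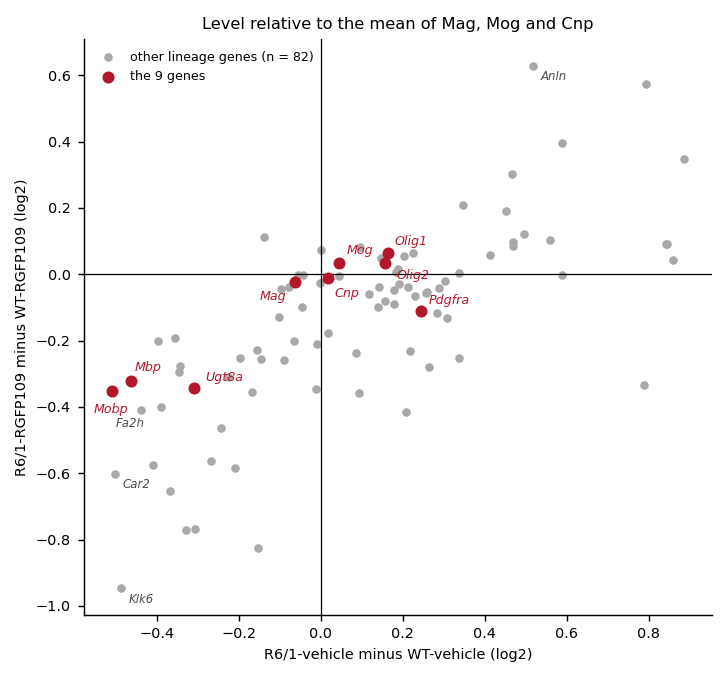
Genotype log2 ratio relative to the mean of Mag, Mog and Cnp with vehicle (horizontal axis) and with RGFP109 (vertical axis), 1 point per gene, for the 9 genes and the 82 other oligodendrocyte genes. Mbp, Mobp and Ugt8a lie below 0 on both axes, while Olig1 and Olig2 lie above 0 on both.

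The wider lineage was described with 84 further genes in 9 lists by role. In R6/1-vehicle against WT-vehicle, 29 of 84 were lower past the limit and none was higher, where 13.4% and 5.84% of all genes were, and their median was -0.33. Of the 11 myelin membrane and junction proteins, 8 were lower, with a median of -0.655. Cldn11 was at 140.0 FPKM in WT-vehicle and 78.2 in R6/1-vehicle (-0.84), while the connexin Gjb1 was at 16.3 and 13.6 (-0.26). Of the 11 enzymes and secreted proteins of mature cells, 9 were lower, with a median of -0.67. Car2 was at 152 and 78.7 FPKM (-0.95) and Klk6, a secreted protease, at 9.45 and 4.93 (-0.93), while Apod, a lipid carrier, was at 152 and 154 (0.02). Among 8 myelin lipid enzymes, 3 were lower, with Fa2h at 32.5 and 17.6 FPKM (-0.88) and the fatty acid elongase Elovl1 at 15.3 and 9.43 (-0.69). Arsa, the sulfatide-degrading arylsulfatase, was at 14.1 and 14.6 FPKM (0.05).

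In the lists of precursor genes, newly formed oligodendrocytes and lineage transcription factors, 1 gene each was lower past the limit, where 13.4% of all genes were. Of 12 precursor genes, 1 was lower past the limit, C1ql1 (8.5 and 5.6 FPKM, -0.6), and the median was -0.13. Cspg4, the NG2 proteoglycan of precursor cells, was at 4.11 and 3.59 FPKM (-0.19), and Lhfpl3 was at 12.9 and 17.3 (0.41). Of 8 genes of newly formed oligodendrocytes, with a median of -0.13, 1 was lower, Bcas1 (102 and 71.0 FPKM, -0.52), and the receptor Gpr17 was at 14.1 and 11.1 (-0.35), and Bmp4, a secreted growth factor, at 1.09 and 1.5 (0.44). The median of the 7 lineage transcription factors was -0.33, that of the myelin lipid enzymes was -0.34, and that of all 84 genes was -0.33. Of the transcription factors 1 was lower past the limit, Nkx6-2 (18.8 and 12.5 FPKM, -0.58), with Sox10 at 34.4 and 24.5 (-0.49) Myrf at 21.4 and 16.2 (-0.4) and Zfp488 at 1.47 and 1.88 (0.35). Among axon-glia adhesion genes 2 of 7 were lower, Lingo1 (-0.81), which neurons also express, and Ninj2 (-0.6), and Omg, the oligodendrocyte myelin glycoprotein, was at 0.02. Among cytoskeleton genes 1 of 8 was lower, the actin-severing protein gelsolin, Gsn (-0.51), with Plekhb1 at -0.45 and Anln at 0.07. Among ligands and receptors 3 of 12 were lower, with the orphan receptor Gpr37 at -0.54, the Notch ligand Jag1 at -0.75 and the growth factor Nrg1 at 0.14.

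With RGFP109, 11 of the 84 genes were lower in R6/1 than in WT mice and 2 were higher past the limit, where 11.7% and 5.39% of all genes were, and the median was -0.082. The share of the 84 genes that were lower was thus near that of all genes. Of the genes with at least 10 FPKM, a level that some of the 84 do not reach, 8.29% were lower. The higher genes were Anln, an actin-binding protein of myelin and of dividing cells (0.62), and Zfp488, a zinc finger factor of the lineage (0.57). Of the mature enzymes and secreted proteins 5 of 11 were lower, with Klk6 at -0.95 and Car2 at -0.61, and of the membrane and junction proteins 1 of 11 was lower, Gpm6b, a proteolipid of neurons and glia (-0.59). Gpm6b was singled out after its value was seen. Cldn11, at -0.21, did not pass the limit. Sox10 (-0.01), Myrf (0.02) and Bcas1 (-0.05) were near equal between genotypes, and Gpr17 was at -0.36. The medians were -0.26 for membrane and junction proteins, -0.32 for mature enzymes, -0.16 for lipid enzymes, -0.037 for precursor genes and 0.077 for transcription factors. In WT mice, 5 of the 84 were lower with RGFP109 and none was higher, where 4.92% and 3.19% of all genes were. The median was -0.175, and 1.77% of genes with at least 10 FPKM were lower past the limit. In R6/1 mice, 1 was lower with RGFP109, Enpp2 (-0.94), where 3.14% of all genes were lower, and the median was 0.044.

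**Figure D4:**
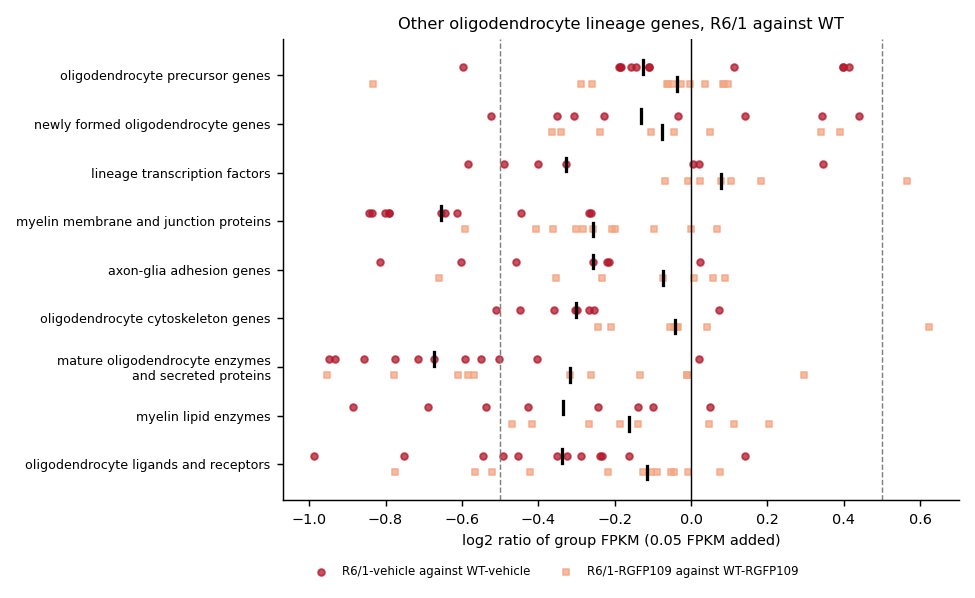
Log2 ratios (1 point per gene) of the 84 oligodendrocyte genes in 9 lists, in R6/1-vehicle against WT-vehicle and in R6/1-RGFP109 against WT-RGFP109, with a tick at each list's median. The medians of the membrane proteins (-0.655) and of the mature enzymes (-0.67) are the lowest with vehicle, and those of the precursor genes are -0.13 with vehicle and -0.037 with RGFP109.

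Markers of other cells in the dissected tissue moved with the groups as well. The 10 astrocyte markers summed to 1150 to 1190 FPKM in WT-vehicle, 824 to 853 in R6/1-vehicle, 1140 to 1190 in WT-RGFP109 and 823 to 849 in R6/1-RGFP109. The 11 microglia markers summed to 428 to 445, 382 to 395, 426 to 443 and 376 to 388 FPKM. Both sets separated the genotypes and, unlike the 9 genes, were near equal in the WT groups, with medians of -0.018 and -0.008 for WT-RGFP109 against WT-vehicle. The 10 markers of striatal projection neurons summed to 3270 to 3400 FPKM in WT-vehicle, 1320 to 1360 in R6/1-vehicle, 3150 to 3280 in WT-RGFP109 and 1190 to 1220 in R6/1-RGFP109. Endothelial and pericyte markers summed to 96.1 to 99.7, 85.1 to 88.2, 88.9 to 92.4 and 79.1 to 81.7 FPKM, and pan-neuronal markers to 2470 to 2560, 2220 to 2300, 2600 to 2700 and 2250 to 2320 FPKM. The gene that differed most in R6/1-vehicle against WT-vehicle was Slc1a2 among astrocyte markers (-0.73), Trem2 among microglia markers (-0.39), Penk among projection neuron markers (-2.01), Cldn5 among endothelial and pericyte markers (-0.68) and Nefm among pan-neuronal markers (-0.43).

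Tissues that border the striatum also varied. The 7 choroid plexus markers summed to 1440 to 1490 FPKM in WT-vehicle, 630 to 656 in R6/1-vehicle, 311 to 323 in WT-RGFP109 and 39.6 to 40.8 in R6/1-RGFP109, and WT-vehicle was highest here as for the 9 genes. In R6/1-vehicle against WT-vehicle, the marker that differed most was Aqp1 for choroid plexus (-1.51) and Slc17a7 for neocortex (-0.89). For fibroblasts it was Col3a1 (0.89), and for Schwann cells it was Prx (-0.73). Both had low levels in WT-vehicle and R6/1-vehicle, Col3a1 at 0.26 and 0.525 FPKM and Prx at 0.377 and 0.208 FPKM. Enpp2 is expressed in choroid plexus as well as in oligodendrocytes. The 5 neocortical neuron markers, all of them lower past the limit in R6/1-vehicle against WT-vehicle, summed to 331 to 344, 189 to 196, 306 to 318 and 241 to 249 FPKM. Compared within a table, these sums were lowest in R6/1-vehicle, as were all of the 9 genes except Pdgfra. The 6 fibroblast and meningeal markers summed to 13.2 to 13.7 FPKM in both vehicle groups, 9.48 to 9.84 in WT-RGFP109 and 10.1 to 10.4 in R6/1-RGFP109. The equal vehicle sums hide opposite differences in R6/1-vehicle against WT-vehicle. Dcn, the most abundant of them, was lower (7.72 FPKM in WT-vehicle and 5.41 in R6/1-vehicle, -0.507). The others were higher, and the median of the 6 was 0.425. The part of tissue composition or dissection in the ratios of the 9 genes was not tested.

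**Figure D5:**
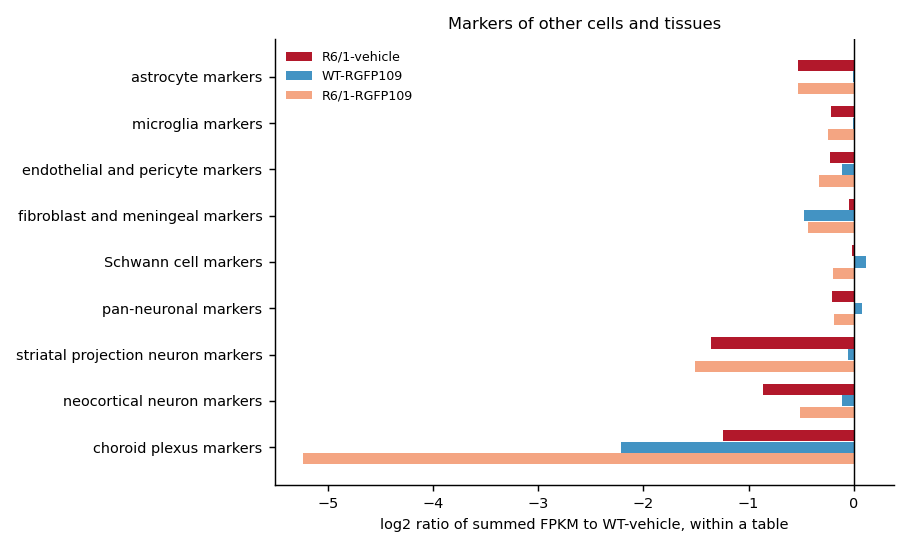
Log2 ratio to WT-vehicle (horizontal axis) of the summed FPKM of marker lists of other cells and tissues. Bars are drawn for R6/1-vehicle, WT-RGFP109 and R6/1-RGFP109. Astrocyte and projection neuron ratios separate the genotypes. The choroid plexus sum is below that of WT-vehicle (1440 to 1490 FPKM) in every group drawn. It is lowest in R6/1-RGFP109 (39.6 to 40.8 FPKM).

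Mobp was used to ask which genes had the most similar pattern, by the distance over 3 log2 ratios to WT-vehicle among 9944 genes with at least 5 FPKM in WT-vehicle. The 10 nearest were Pdlim2 (distance 0.049), Fa2h (0.089), Prr18 (0.094), Blvrb (0.123), Efhd1 (0.126), Unc5b (0.128), Btg2 (0.144), Arl4d (0.166), Junb (0.174) and Cldn11 (0.182). Of these, 2 of 10 were on an oligodendrocyte list, Fa2h and Cldn11, where the lists hold 84 genes in all. The others were on none of the lists, and whether oligodendrocytes express them was not examined. Among them, Btg2 and Junb are immediate early genes that neurons express. With the members included, Mbp ranked 2 and Ugt8a ranked 27 of 9952, while Mag ranked 468, Cnp 776, Mog 891, Olig1 1577, Olig2 1642 and Pdgfra 2068. The pattern rests on 4 group values per gene.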

How the data were processed

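Striatal RNA was sequenced from 24 mice in 4 groups. Per the labels and the study's methods, the authors aligned reads to mm10 with STAR 2.5.0b and ran Cuffdiff of Cufflinks 2.2.1 on each pair of groups. The 6 deposited tables hold FPKM, with 1 value per gene and group computed over all libraries of the group, in 24341 rows each. Their columns of fold changes, test statistics, p-values and q-values hold the authors' own comparisons and were not used. Groups were taken from the sample labels. Log2 ratios were computed within a table with Python 3.11.15, numpy 2.4.6 and pandas 2.3.3, after adding 0.05 FPKM, for genes with at least 0.1 FPKM in 1 of the groups compared, and the calculation was tested on simulated data. Adding 0.05 FPKM hardly moves genes at the levels of the 9 members. Since no values per library were analysed here, there is no SD, test or interval, and the depth is unknown. Coordinates are those of the deposited tables, counted from 1.

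The members and lists were chosen with earlier results of these data known. From each list of oligodendrocyte genes, the 2 genes with the lowest and the 1 with the highest log2 ratio in R6/1-vehicle against WT-vehicle were named, among those with at least 1 FPKM, beside Sox10, Myrf, Cspg4 and Gpr17, and from each list of other cells the gene with the largest ratio in size. The 10 genes nearest to Mobp were named as well. A further gene that the rule names is not reported here. Trf, Enpp2 and Gpm6b stand outside this rule and were chosen after their values were seen. Alternatives were another pseudocount, other filters, other limits, centring on the median of all genes, the mean of the tables and a reference of Mag, Mog and Cnp.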

Additional observations from a re-analysis of the deposited data

How the results depend on the processing

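No paired analysis was possible because the tables hold pooled group values, and for the same reason no library could be left out. The count of the 9 genes past the limit depended on that limit. At a log2 ratio of 0.25 it was 8 for R6/1-vehicle against WT-vehicle, 3 for the genotypes with RGFP109, 7 for the drug in WT mice and 6 for R6/1-RGFP109 against WT-vehicle. At a limit of 1 it was 0 for R6/1-vehicle against WT-vehicle, for R6/1-RGFP109 against WT-vehicle and for R6/1-vehicle against WT-RGFP109. Relative to the mean of Mag, Mog and Cnp, an alternative chosen after seeing the data, 1 of the remaining 6 genes passed in R6/1-vehicle against WT-vehicle, and 0 passed in R6/1-RGFP109 against WT-vehicle and in R6/1-vehicle against WT-RGFP109. Their medians were then -0.075, -0.217, 0.073 and -0.075 for R6/1-vehicle against WT-vehicle, the genotypes with RGFP109, the drug in WT mice and R6/1-RGFP109 against WT-vehicle. This follows from the construction, which removes what the 3 reference genes share. Centring on the median of all genes brought Mag under the limit in R6/1-vehicle against WT-vehicle. No pseudocount, 1 FPKM added, both other filters and the mean of the tables changed none of the 54 ratios of the 9 genes in direction or side of the limit. The background of genes with at least 10 FPKM was also chosen after seeing the data.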
